A study of Mus musculus with 96 samples.

Results

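The comparison set morulae, taken at about 84 h after fertilization, against late 2-cell embryos taken at 36 h. Its members are the libraries labelled for those times in the deposited count table that held at least 100000 gene counts: 6 of 7 morulae and all 8 embryos at 36 h, or 14 of the 96 libraries of the series. The morula library left out, replicate 5, held 10378 counts. Each library was made from 1 whole embryo. Both groups were untreated C57BL/6J embryos from superovulated C57BL/6J females mated to C57BL/6J males, stripped of cumulus cells with hyaluronidase and cultured in KSOM medium, with cDNA made by the SMART-Seq v4 kit and libraries by Nextera XT. The labels do not say which embryos shared a mother. The 36 h embryos were processed in 1 cohort with the earlier embryos and the morulae in a batch of their own, so batch and stage cannot be told apart in any value below, and no batch holds both stages to give a within-batch value.

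At the late 2-cell stage the mouse embryo has just switched on its own genome. Transcripts that the oocyte stored are being degraded, and a brief program of genes such as the Zscan4 family, driven in part from MERVL retroviral elements, is active. A morula is a compacted ball of cells that has been through several further divisions. Its cells adhere through E-cadherin, the outer ones become polarised, and Hippo signalling in the inner ones starts to separate future inner cell mass from future trophectoderm, the first layer of the placenta. Protein synthesis and mitochondrial activity are known to rise over this period.

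Promoters of 4 genes that were higher in morulae and of 2 genes of the 2-cell program that were lower are shown first, because nearly all members of these groups moved together. They come from RefSeq, build GRCm38.p6, and give the 250 bases before the annotated start in the direction of transcription. They were chosen after values and motif matches had been seen. Capitals mark CCGGAAG, the core recognised by ETS-type factors, and TATAAA, the TATA motif, on either strand. The 2 motifs do not overlap each other.
Rpl38, a 60S ribosomal subunit protein, chr11:114668330-114668579 on the plus strand, has the ETS-type core 20 bases before the start.
Rpl38: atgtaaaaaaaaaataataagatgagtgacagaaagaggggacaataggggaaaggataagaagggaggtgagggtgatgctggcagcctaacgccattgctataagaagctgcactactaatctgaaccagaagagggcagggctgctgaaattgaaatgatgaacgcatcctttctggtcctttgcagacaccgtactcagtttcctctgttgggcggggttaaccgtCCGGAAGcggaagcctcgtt
Rps18, a 40S subunit protein, chr17:33955666-33955915 on the minus strand, has it 157 and 75 bases before the start.
Rps18: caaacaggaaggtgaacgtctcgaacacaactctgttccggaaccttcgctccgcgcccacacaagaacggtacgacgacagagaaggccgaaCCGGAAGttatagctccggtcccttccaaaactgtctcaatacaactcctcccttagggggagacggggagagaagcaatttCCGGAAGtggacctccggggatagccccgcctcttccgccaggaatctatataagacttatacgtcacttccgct
Ndufb7, a subunit of respiratory complex I, chr8:83566508-83566757 on the plus strand, has it 20 bases before the start, and has TATAAA on the opposite strand 235 bases before it.
Ndufb7: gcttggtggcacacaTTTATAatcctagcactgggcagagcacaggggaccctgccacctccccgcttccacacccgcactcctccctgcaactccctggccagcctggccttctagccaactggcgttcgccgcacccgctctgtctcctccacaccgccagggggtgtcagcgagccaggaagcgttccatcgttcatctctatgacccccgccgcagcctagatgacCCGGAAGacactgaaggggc
Psmd6, a regulatory subunit of the proteasome, chr14:14120946-14121195 on the minus strand, has the core 45 and TATAAA 182 bases before the start.
Psmd6: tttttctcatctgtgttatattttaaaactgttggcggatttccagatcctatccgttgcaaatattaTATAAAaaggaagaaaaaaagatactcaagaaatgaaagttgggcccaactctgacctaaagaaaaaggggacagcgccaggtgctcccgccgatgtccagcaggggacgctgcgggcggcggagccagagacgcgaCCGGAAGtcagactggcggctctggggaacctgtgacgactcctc
Zscan4d, a 2-cell zinc-finger gene of the Zscan4 cluster, chr7:11166149-11166398 on the minus strand, has TATAAA 65 bases before the start.
Zscan4d: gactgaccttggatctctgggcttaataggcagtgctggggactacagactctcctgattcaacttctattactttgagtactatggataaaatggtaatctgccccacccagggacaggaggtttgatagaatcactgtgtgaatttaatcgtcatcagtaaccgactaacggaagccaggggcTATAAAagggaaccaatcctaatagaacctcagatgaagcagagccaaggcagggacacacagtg
Usp17lb, a deubiquitinase gene of the same 2-cell program, chr7:104842584-104842833 on the minus strand, has TATAAA 31 bases before the start.
Usp17lb: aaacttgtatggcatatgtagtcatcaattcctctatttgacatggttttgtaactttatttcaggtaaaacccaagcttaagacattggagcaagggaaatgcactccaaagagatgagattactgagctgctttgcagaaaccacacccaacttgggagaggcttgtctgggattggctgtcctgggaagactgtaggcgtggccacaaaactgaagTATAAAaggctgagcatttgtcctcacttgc

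The motifs were searched in the full RefSeq windows, 250 bases before to 50 after the start, on both strands. CCGGAAG was found in 24 of 58 ribosomal protein genes with an entry (41.4%), 16 of 62 nuclear respiratory chain genes (25.8%), 10 of 25 proteasome genes (40%) and 0 of 17 genes of the 2-cell program. It was in 1735 of the 8080 tested genes with an entry (21.5%) and in 2683 of all 27025 genes in the table (9.93%). Of genes higher in morulae 575 of 2020 held it (28.5%), against 537 of 3650 lower genes (14.7%). TATAAA was found in 7 of the 17 genes of the 2-cell program (41.2%), against 9.08% of tested genes and 15.7% of all genes. These are matches of letters and were not tested for binding.

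Gene counts per library ran from 1202180 to 3363200 at 36 h and from 1130566 to 4202541 in the 6 morulae. CPM, the usual depth-scaled count, was computed over gene rows with library sizes scaled by TMM over the 14 libraries, and levels are given as the lowest, median and highest library of each group. CPM is a share of a library, so the amount of RNA per embryo was not measured, and in whole embryos fewer cells of a type and less RNA per cell cannot be told apart. The median correlation of a library with others of its group was 0.781 to 0.864 at 36 h, lowest in replicate 6, and 0.908 to 0.923 among morulae. The sum of 20 markers of cumulus and granulosa cells, the cells that surround the oocyte, set apart replicates 3 and 6 at 36 h. It was 1249 and 274.5 CPM there, chiefly Hsd3b1 and Cyp11a1, and 22.0 to 75.2 CPM in the other 36 h embryos. In morulae it was 0 to 6.80 CPM, with 14 of the 20 at 0 counts. Single markers did not all follow the sum. Tnfaip6, the 1 marker tested, was at 6.86 CPM in replicate 3, 37.7 CPM in replicate 6 and 1.265 to 16.03 CPM in the others. Star was at 0.914 CPM in replicate 3. Of the 20, Amh and Ereg were at 0 in all 14 libraries, while others were detected at 36 h, such as Fshr at 4.70 and 5.49 CPM in replicates 2 and 3 and Star at 35.4 CPM in replicate 6. Blood and oviduct markers summed to 31.2 to 354 CPM at 36 h and 2.24 to 60.7 CPM in morulae, with both haemoglobin genes tested, Hba-a1 and Hba-a2, lower in morulae. Without 36 h replicates 3 and 6, 3456 genes were higher in morulae and 4623 lower, of 11128 tested. With them the counts were 3532 and 5357, of 12199 tested.

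Most of the transcriptome differed between the stages. Of 12199 genes tested with edgeR's quasi-likelihood test, 3532 (29.0%) were higher in morulae and 5357 (43.9%) lower at a Benjamini-Hochberg adjusted p under 0.05. In 2460 genes (20.2%) every morula lay above every 36 h embryo, and in 3470 (28.4%) every morula lay below. These shares are the background for every list below. The median log2 change of all tested genes, morula minus 36 h, was -0.59, and it was -0.80 with library size alone and -0.78 with DESeq2's size factors, so the sign of small changes depends on the scaling, and each list's median is to be read against -0.59. The p-values measure the spread between these embryos, each stage in its own batch.

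Morulae had fewer kinds of transcript. With each library thinned to 1130322 counts, 17332, 19239 and 21411 genes had a count at 36 h and 13531, 13997 and 14462 in morulae (exact permutation test over 3003 splits, two-sided p = 0.00067, the smallest this design can give, adjusted over 4 measures 0.00089). The groups did not overlap. The 100 most abundant genes took 30.0% to 49.7% of counts at 36 h and 26.7% to 30.0% in morulae (exact permutation test, adjusted p = 0.00089), and the groups met at the edge, in 36 h replicate 3 and morula replicate 4. Counts in repeat families amounted to 21.2% to 35.2% of gene counts at 36 h and 7.03% to 14.8% in morulae, again without overlap (exact permutation test, adjusted p = 0.00089). The share of nuclear protein-coding counts, 62.6% to 76.4% and 72.9% to 76.9%, overlapped (exact permutation test, adjusted p = 0.43).

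**Figure D1:**
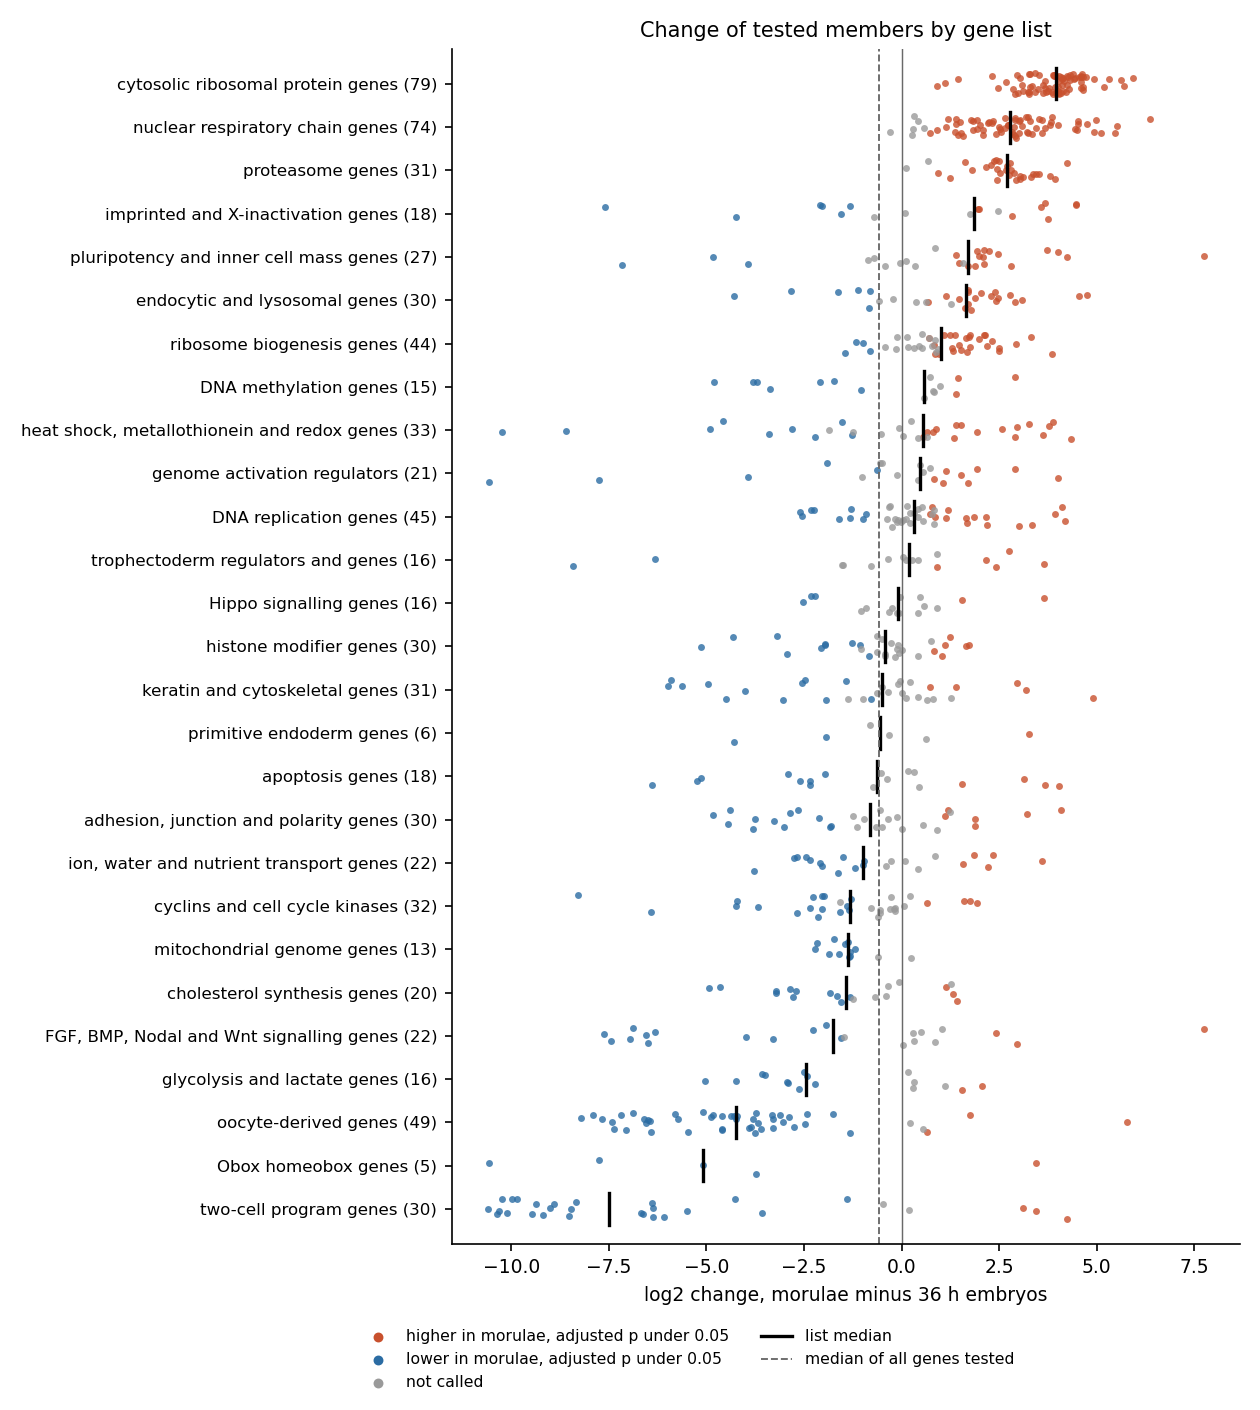
Log2 change, morula minus 36 h, of the tested members of 27 gene lists with at least 5 tested members. Each point is 1 gene, the bar is the list's median and the dashed line marks the median of all genes tested, -0.59. Ribosomal protein, respiratory chain and proteasome genes lie almost wholly above it, and 2-cell program and oocyte-derived genes lie mostly far below.

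Genes of the ribosome rose as a block. All 79 cytosolic ribosomal protein genes were higher in morulae, 78 of them with no overlap between groups, and their median log2 change was 3.97. Their summed level was 3082, 3581 and 4612 CPM at 36 h and 40755, 45064 and 61206 CPM in morulae. Rpl38, whose promoter is shown above, stood at 1.37, 4.46 and 7.66 CPM at 36 h and 175, 265 and 413 CPM in morulae (log2 change 5.92, SE 0.34, adjusted p = 6.72e-12). No 36 h embryo came near any morula for this gene. Rpl35a, also of the large subunit, stood at 4.52, 10.4 and 16.4 CPM at 36 h and 444, 533 and 791 CPM in morulae (log2 change 5.71, SE 0.30, adjusted p = 2.34e-12). Rps20 and Rps18, of the small subunit, had log2 changes of 5.64 and 5.31, both without overlap. The least changed were Rpl28, Rplp0 and Rpl17, at 0.92, 1.11 and 1.45, and Rpl17 was the 1 gene whose groups overlapped. Ribosomal protein genes have many near-identical pseudogenes, so reads may be shared out among copies and single values are uncertain.

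Ribosome biogenesis genes, which process ribosomal RNA and assemble subunits, were less uniform: of 44, 26 were higher and 4 lower (median 1.02). Npm1, the nucleolar chaperone nucleophosmin, stood at 160.0, 287 and 391 CPM at 36 h and 2508, 2734 and 3241 CPM in morulae (log2 change 3.33, SE 0.21, adjusted p = 2.53e-11). Nhp2, of the box H/ACA particles that modify ribosomal RNA, had a log2 change of 3.86, the nucleolar GTPase Gnl3 2.94 and the 60S assembly factor Mrto4 2.50. In all 4 of these genes the morulae lay above all 36 h embryos. The 4 lower genes, Rrp9, Nop14, Noc3l and Rrn3, had log2 changes of -1.46, -1.16, -0.99 and -0.82, and 1 or 2 members were lower when morula replicate 2, 3, 4, 7 or 8 was left out.

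The nuclear and mitochondrial genomes' shares of the respiratory chain moved in opposite directions. Of 74 tested nuclear genes for complexes I to V, 68 were higher in morulae and 0 lower (59 without overlap, median 2.79). They summed to 4836, 5411 and 5649 CPM at 36 h and 21466, 24219 and 29701 CPM in morulae. Ndufa12, an accessory subunit of complex I, stood at 2.11, 4.28 and 7.77 CPM at 36 h and 275, 355 and 471 CPM in morulae (log2 change 6.36, SE 0.32, adjusted p = 1.71e-12). The complex I subunits Ndufs5, Ndufb7 and Ndufa3 had log2 changes of 5.52, 5.47 and 5.11, and none of the 4 overlapped between groups. Among those that did not pass the test were Cox8a, Atp5b, Cox7b, Ndufb6 and Sdha. The count of lower members was 1 with library size alone and with DESeq2's test.

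Of the 13 protein genes of the mitochondrial genome, 11 were lower in morulae and 0 higher (5 without overlap, median -1.36). Their sum was 50795, 75776 and 211572 CPM at 36 h and 23441, 35557 and 46239 CPM in morulae. mt-Co1, the catalytic subunit of cytochrome c oxidase, stood at 8238, 9343 and 29407 CPM at 36 h and 1469, 2568 and 3812 CPM in morulae (log2 change -2.21, SE 0.33, adjusted p = 3.91e-06). The morulae lay below all 36 h embryos. mt-Co2, of the same complex, and mt-Nd4l and mt-Nd3, of complex I, had log2 changes of -2.16, -1.85 and -1.74. mt-Nd2 and mt-Nd6 did not pass, and 1 member was called higher when 36 h replicate 6 was left out.

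Proteasome genes rose with the ribosome. Of 31, 29 were higher and 0 lower (27 without overlap, median 2.70), and the sum was 1743, 2373 and 3285 CPM at 36 h and 13052, 16513 and 18272 CPM in morulae. Psmb5, the subunit with chymotrypsin-like activity, stood at 3.02, 15.7 and 21.3 CPM at 36 h and 183, 207 and 231 CPM in morulae (log2 change 3.81, SE 0.30, adjusted p = 4.14e-10). All morulae lay above all 36 h embryos. The core subunits Psma6 and Psmb3 and the ATPase Psmc5 had log2 changes of 4.25, 3.53 and 3.93, without overlap. Psmd2 and Psmd3, of the regulatory particle, did not pass. Among gene families grouped by name after the data were seen, 68 of 80 mitochondrial ribosomal protein genes (Mrpl and Mrps) were higher and 0 lower (median 2.49), 39 of 58 Eif translation initiation genes were higher and 7 lower, and 26 of 35 Snrp, Sf3 and Lsm splicing genes were higher and 4 lower.

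Several of the genes that rose furthest were at or near 0 in most 36 h embryos. By rule, the 12 genes with the largest rise among those called, without overlap and at 50 CPM or more in morulae were Sycn, Eprn, Rpph1, AC154457.3, Tdgf1, Vnn1, Syngr1, Nt5c, Bhmt, Timd2, Bhmt-ps1 and Calcoco2. Timd2, a membrane protein of the TIM family (mm10 chr11:46668960-46707061, minus strand), stood at 46.8, 100.4 and 533 CPM at 36 h and 14554, 16460 and 20847 CPM in morulae (log2 change 6.79, SE 0.51, adjusted p = 2.65e-10). The 36 h embryo of replicate 1 was well above its group, and still far below every morula. Calcoco2, the autophagy receptor NDP52, stood at 23.4, 39.5 and 87.6 CPM at 36 h and 2865, 4134 and 6301 CPM in morulae (log2 change 6.51, SE 0.33, adjusted p = 1.83e-12). Syngr1, a vesicle membrane protein, stood at 0, 1.99 and 9.33 CPM at 36 h and 559.5, 694 and 910.5 CPM in morulae (log2 change 7.59, SE 0.46, adjusted p = 1.29e-11). For both, all morulae lay far above all 36 h embryos. Bhmt, which remethylates homocysteine with betaine, and its pseudogene Bhmt-ps1 had log2 changes of 6.81 and 6.73, and reads of the pair may be shared.
Sycn, a zymogen granule protein, had 2 counts over the 8 embryos at 36 h and 1566 over the 6 morulae, a ratio of 1085 per unit of library with a 95% counting interval of 300.0 to 8970. Eprn, a non-coding RNA, had 1 and 866 counts, a ratio of 1200 (214.9 to 47467). These intervals cover counting error only. Rpph1, the RNA of ribonuclease P, stood at 0, 0.483 and 1.92 CPM at 36 h and 151, 446 and 659.6 CPM in morulae (log2 change 9.07, SE 0.51, adjusted p = 4.62e-12). Vnn1, a pantetheinase, and Nt5c, a nucleotidase, had log2 changes of 7.61 and 7.57. Every one of these genes had all 6 morulae above all 8 embryos at 36 h, which the rule required.

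Pluripotency and inner cell mass genes were mostly higher. Of 27 tested, 16 were higher and 3 lower (12 and 3 without overlap, median 1.71), and 6 were lower when morula replicate 6 was left out. Tdgf1, the Nodal co-receptor Cripto, stood at 0, 0 and 5.48 CPM at 36 h and 77.9, 204 and 349 CPM in morulae (log2 change 7.75, SE 0.68, adjusted p = 2.36e-09). It was at 0 counts in 5 of the 8 embryos at 36 h, with replicate 2 the highest, and present in all morulae. Dppa5a, an RNA-binding protein of early embryos, stood at 8.29, 200.4 and 440.1 CPM at 36 h and 3189, 3756 and 4667 CPM in morulae (log2 change 4.25, SE 0.46, adjusted p = 4.53e-08), and Dppa2, a chromatin protein of the same stage, at 30.1, 39.3 and 65.7 CPM at 36 h and 464, 684 and 1085 CPM in morulae (log2 change 4.00, SE 0.25, adjusted p = 2.30e-11). Spic, an ETS factor, stood at 63.5, 152 and 255 CPM at 36 h and 1166, 1904 and 3937 CPM in morulae (log2 change 3.73, SE 0.33, adjusted p = 2.15e-09). None of the 3 overlapped between the stages. Dppa3, the maternal factor Stella that protects methylation in the early zygote, had medians of 6011 to 12824 CPM from 36 h to morula (log2 change 1.41), again without overlap.
The core factors of the network did not move as one: Nanog was higher, Pou5f1, Klf4 and Zfp42 did not pass, and Sox2 was at 0 in morulae. Nanog, a homeobox factor of the inner cell mass, stood at 0.422, 1.91 and 9.63 CPM at 36 h and 3.83, 12.3 and 19.4 CPM in morulae (log2 change 2.11, SE 0.61, adjusted p = 0.00408), and the groups overlapped. Pou5f1, which encodes OCT4, stood at 16.3, 47.9 and 127.4 CPM at 36 h and 38.1, 56.97 and 109.5 CPM in morulae (log2 change 0.34, SE 0.40, adjusted p = 0.45), with the morulae inside the 36 h range. Klf4 had a log2 change of 0.11 (adjusted p = 0.785) and Zfp42 of -0.71 (adjusted p = 0.0996). Zfp42 passed, as lower in morulae, in 2 of the 14 fits without 1 library and in 5 of all 23 alternative fits. Sox2 stood at 0, 5.32 and 10.97 CPM at 36 h and had 0 counts over the morulae, which puts it at least 25.3-fold lower against a floor of 3 counts over the 6 libraries, and it was too low to be tested. The 3 lower genes were Tcl1 (-7.18), a cofactor of AKT kinase abundant in oocytes, Upp1 (-4.83), a uridine phosphorylase, and Klf17 (-3.94), an early Krüppel-like factor.

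**Figure D2:**
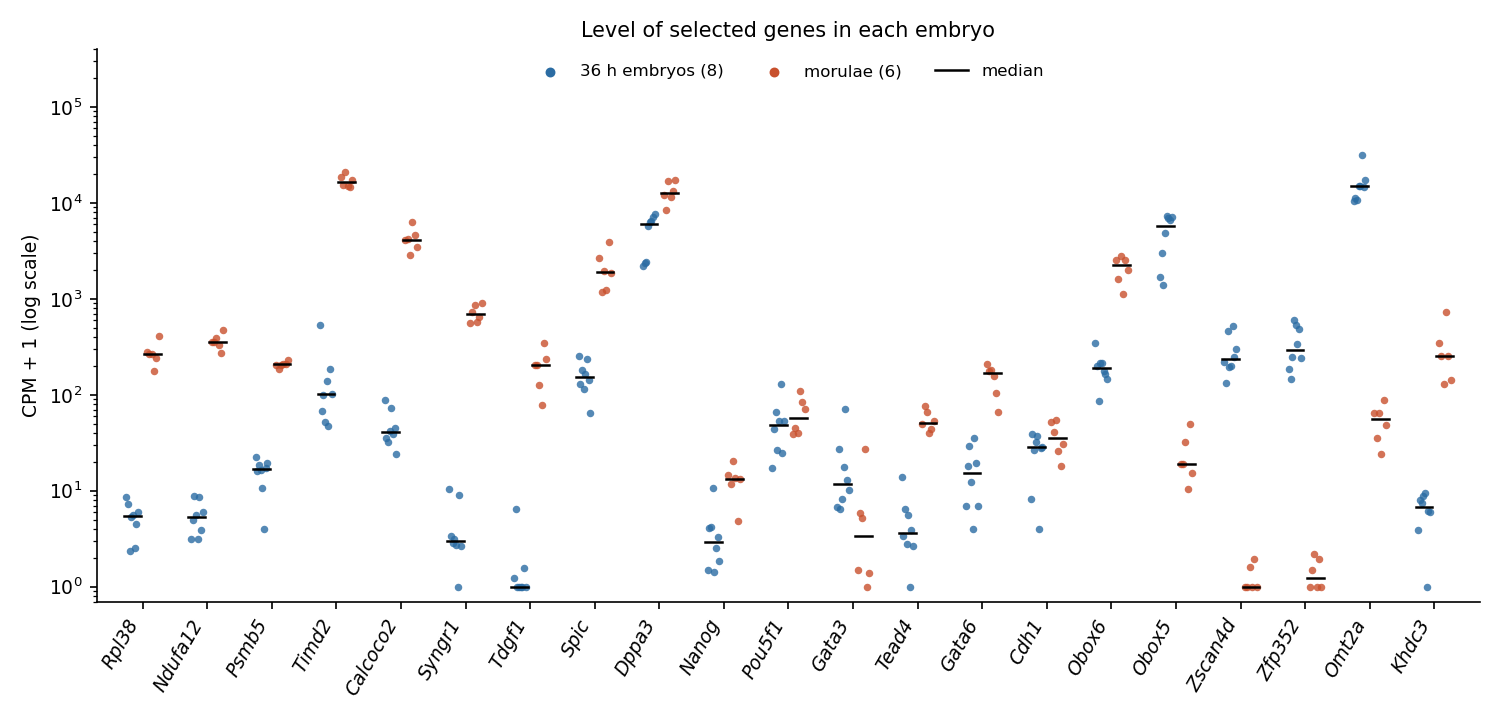
Level of 21 genes in each of the 8 embryos at 36 h and the 6 morulae, as CPM + 1 on a log axis. Points are embryos and bars are medians. Rpl38, Ndufa12, Psmb5, Timd2, Calcoco2, Syngr1, Tdgf1 and Khdc3 separate upward without overlap, Obox5, Zscan4d, Zfp352 and Omt2a downward, and Pou5f1, Gata3 and Cdh1 overlap.

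Of 16 tested trophectoderm genes, 5 were higher and 2 lower (median 0.19). Tead4, the DNA-binding partner of YAP needed for trophectoderm, stood at 0, 2.61 and 12.9 CPM at 36 h and 39.3, 50.3 and 75.8 CPM in morulae (log2 change 3.65, SE 0.51, adjusted p = 1.60e-06). Even the lowest morula was above the highest 36 h embryo. Sfn, an epithelial 14-3-3 protein, Bmp8b, a BMP ligand, and Gm2a, a lysosomal activator protein, had log2 changes of 2.75, 2.43 and 2.17. Tfap2c, an AP-2 factor, reached 0.91 (adjusted p = 0.0214), and it missed the threshold in 2 of the 14 fits that leave out 1 library each. Over all 23 alternative fits it missed the threshold in 7, among them those with library size alone and with DESeq2's size factors. Cdx2, the defining trophectoderm factor, stood at 0 CPM in most embryos of both stages, with 20 counts over the 6 morulae, and was not tested. Eomes had 96 counts at 36 h and 1 in morulae, a ratio of 69.3 with a lower 95% counting bound of 12.1, and was not tested either. Gata3 stood at 5.49, 10.6 and 69.4 CPM at 36 h and 0, 2.38 and 26.4 CPM in morulae (log2 change -1.53, SE 0.82, adjusted p = 0.098), overlapping between stages. Without morula replicate 6 its log2 change was -3.14 (adjusted p = 0.00251), and 4 members of the list were lower. Gata2 had 338 counts at 36 h and 0 in morulae, at least 81.3-fold lower over pooled counts. It ran from 0 CPM in replicate 5 to 56.7 CPM in replicate 3 at 36 h, so the groups met at 0. Only 8 of the 14 fits without 1 library tested Gata2. Id2, an inhibitor of bHLH factors, had a log2 change of -6.32. With 36 h replicate 1, 2, 3, 4, 6 or 7 left out, 1 member was lower. The keratins of trophectoderm, Krt8 and Krt18, did not pass (-0.33 and 0.12, adjusted p = 0.733 and 0.862). Their highest 36 h levels were in replicates 3 and 6, the embryos with the highest cumulus marker sums. The same 2 embryos had the highest 2-cell program sums, 9336 and 6896 CPM against 2776 to 5712 CPM in the others. How the keratins relate to either sum was not tested. Krt8 was at 26.5 and 31.7 CPM in replicates 3 and 6 and at 1.44 to 11.4 CPM in the other 36 h embryos. Krt18 was at 58.1 and 59.6 CPM, against 5.06 to 27.0 CPM. Neither gene passed in any alternative fit that tested it.

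Only 6 of 18 primitive endoderm genes were abundant enough to test. Gata6, the early factor of that lineage, stood at 2.95, 14.3 and 34.7 CPM at 36 h and 65.8, 166 and 207 CPM in morulae (log2 change 3.26, SE 0.44, adjusted p = 1.09e-06). All morulae were above all 36 h embryos. Gata4 did not pass (-0.32, adjusted p = 0.699), and Amn, an endocytic co-receptor, was lower (-4.30). Lamc1, a laminin chain, was the other lower gene (-1.93, adjusted p = 0.0286), and lost its call in 5 of the 14 fits without 1 library. Counts in this list moved by 1 when morula replicate 2, 4 or 6 (2 higher) or 36 h replicate 6 (1 lower) was left out.

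Of 30 tested adhesion, junction and polarity genes, 6 were higher and 12 lower (median -0.82). Their split was near that of all genes tested, 29.0% higher and 43.9% lower with a median of -0.59. Cdh1, E-cadherin, stood at 3.02, 27.3 and 37.95 CPM at 36 h and 17.2, 34.9 and 53.4 CPM in morulae (log2 change 0.56, SE 0.44, adjusted p = 0.253), with the stages overlapping. Cldn4 and Cldn7, tight-junction claudins, had log2 changes of 4.08 and 3.23, while another claudin, Cldn6, had -3.77. Crb3, an apical polarity protein, and Ctnnd1, p120 catenin, had 1.89 and 1.89. On the lower side were Mpp5 (the apical scaffold PALS1, -4.84), Pard3 (the polarity protein PAR3, -3.80), Msn (moesin, -4.46) and Tjp3 (ZO-3, -4.40). Both claudins and polarity proteins were thus found on either side.
In the Hippo list 2 of 16 were higher, Tead4 and the kinase Lats2 (1.55, adjusted p = 0.019), and 3 lower: Yap1, the coactivator (-2.22), Stk3, the kinase MST2 (-2.53), and Tead2 (-2.32). Yap1 stood at 80.5, 131.4 and 238 CPM at 36 h and 12.4, 28.1 and 47.6 CPM in morulae, and the 2 groups did not overlap.

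Of 22 tested ion, water and nutrient transport genes, 5 were higher and 12 lower (median -0.98). Slc5a6, a sodium-dependent vitamin transporter, had medians of 9.86 to 148 CPM (log2 change 3.59). Slc7a6, an amino acid transporter, and Slc6a6, the taurine transporter, had 2.21 and 1.85, and the aquaporin Aqp3 2.34. Aqp3 and Slc6a6 overlapped between stages, with Slc6a6 at 74.1 CPM in 36 h replicate 3 and 37.9 to 106.9 CPM in morulae. Slc2a1, the glucose transporter GLUT1, and Atp1b1, the sodium pump subunit used in blastocoel formation, had -3.79 and -2.34, both with all morulae below all 36 h embryos.

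Endocytic and lysosomal genes were higher more often, 19 of 30, with 6 lower (median 1.66). Cd63, a tetraspanin of late endosomes, stood at 55.04, 98.7 and 205 CPM at 36 h and 1982, 2711 and 4405 CPM in morulae (log2 change 4.75, SE 0.30, adjusted p = 2.24e-11), without overlap. Grn, progranulin, and Cd9, another tetraspanin, had log2 changes of 4.54 and 2.91. Laptm4b, a lysosomal membrane protein, and Rab7, the late endosome GTPase, were lower (-2.83 and -1.64).

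The 2-cell program was nearly gone. Of 30 tested members, 25 were lower and 3 higher, all of these without overlap. The median log2 change was -7.50, and -6.65 with genes at 0 counts in morulae set at the bound that a floor of 3 counts gives. Zscan4d stood at 131.5, 233 and 519 CPM at 36 h and 0, 0 and 0.958 CPM in morulae, with 4733 counts at 36 h and 2 in morulae, a ratio of 1707 (lower 95% counting bound 472). Zfp352, a retrotransposed zinc-finger gene of this stage, stood at 146, 290.2 and 599.9 CPM at 36 h and 0, 0.243 and 1.22 CPM in morulae (log2 change -9.87, SE 0.62, adjusted p = 2.12e-11). Zscan4a had 5665 counts at 36 h and 3 in morulae. Among the 12 genes with the largest fall were Zscan4-ps3, Rfpl4b, BC147527, Obox3-ps2, Meioc, Obox4-ps35, Ccdc82 and Pramef6, all at 0 counts in morulae and at least 1627-, 706-, 690.4-, 493-, 410.5-, 375-, 294- and 292-fold lower. AF067061, Obox3, Zscan4d and AA414992, with 1 or 2 counts in morulae, made up the rest. These 12 were picked by rule from all genes tested, not from the 2-cell list. Ccdc82 was also present in oocytes, at a mean of 43.4 CPM with library sizes scaled over the whole series. Members of clustered families such as Zscan4 and Obox are near-identical copies, so single values within a family are uncertain.
The 3 higher members were Obox6, Pramel7 and Pramel6. Obox6, a gene of the Obox homeobox family, stood at 85.5, 189 and 346 CPM at 36 h and 1123, 2252 and 2819 CPM in morulae (log2 change 3.44, SE 0.28, adjusted p = 9.72e-10). Its mean in oocytes was 1.03 CPM, with library sizes scaled over the whole series. Pramel7 and Pramel6, PRAME-family genes of the early embryo, had medians of 24.04 to 605 and 58.9 to 499 CPM (log2 changes 4.24 and 3.10). The summed level of the list, Obox6 included, overlapped between the groups: 2776, 5113 and 9336 CPM at 36 h and 2647, 3485 and 4368 CPM in morulae. Of the other genes in a list of 5 Obox genes, Obox1, Obox2, Obox3 and Obox5, all were lower, while Obox8, outside the list, did not pass (values below). Obox5 stood at 1384, 5713 and 7348 CPM at 36 h and 9.46, 18 and 48.9 CPM in morulae (log2 change -7.75, SE 0.56, adjusted p = 1.21e-10), so Obox5 and Obox6, of 1 homeobox family, changed in opposite directions without overlap.

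Oocyte-derived transcripts were depleted. Of 49 tested, 44 were lower and 3 higher (40 and 2 without overlap, median -4.25), and they summed to 32972, 67346 and 109541 CPM at 36 h and 1778, 2138 and 2715 CPM in morulae. Omt2a, an oocyte-expressed gene with a near-identical copy Omt2b, stood at 10403, 14866 and 31268 CPM at 36 h and 23.1, 55.4 and 88.1 CPM in morulae (log2 change -8.21, SE 0.44, adjusted p = 2.57e-12). Omt2b and Oog3, an oogenesin, had log2 changes of -7.91 and -7.67. Btg4, the adaptor that directs deadenylation of maternal mRNA, had medians of 7148 to 31.0 CPM (-7.42). The growth factors Bmp15 and Gdf9, the subcortical complex gene Nlrp5 and the oocyte linker histone H1foo had -6.88, -3.90, -4.61 and -3.03. Every morula lay below every 36 h embryo in all 8 of these genes. Khdc3, another gene of the subcortical maternal complex, went against the list, at 0, 5.79 and 8.44 CPM at 36 h and 127.5, 251 and 721 CPM in morulae (log2 change 5.79, SE 0.47, adjusted p = 7.83e-10), without overlap. Gtsf1, which acts with piRNAs in germ cells, was also higher (1.75). The zona gene Zp3 did not pass (0.55, adjusted p = 0.114), and passed in 3 of the 14 fits without 1 library. Of 21 genome activation regulators, 8 were higher and 5 lower, among the lower ones Nfya, a CCAAT-binding factor (-1.92), and Duxbl1, of the Dux family (-1.39).

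Glycolysis genes were lower: 10 of 16 tested, with 2 higher (median -2.46). Pfkp, phosphofructokinase, and Pdk1, which inhibits pyruvate dehydrogenase, had log2 changes of -5.03 and -4.24. Ldhb, the lactate dehydrogenase subunit abundant in oocytes, stood at 298, 624 and 917 CPM at 36 h and 16.03, 53.4 and 97.8 CPM in morulae (log2 change -3.50, SE 0.38, adjusted p = 6.47e-08), without overlap. Tpi1, triose phosphate isomerase, had -3.56. Pdha1, the pyruvate dehydrogenase subunit, was higher (2.06). Pfkfb3 passed narrowly (adjusted p = 0.0499) and was lost in 9 of the 14 fits without 1 library and in 14 of all 22 alternative fits. Without 36 h replicate 2, 3, 4, 5 or 8, or morula replicate 3, 4, 6 or 8, Pdha1 was the one member still higher. Of 20 cholesterol synthesis genes, 3 were higher (Fdps, Ebp and Msmo1, 1.42, 1.33 and 1.14) and 11 lower, including Cyp51 (-4.95), Mvk (-4.66) and the regulator Srebf2 (-3.22).

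Heat shock, metallothionein and redox genes split, 16 of 33 higher and 9 lower. Hspa8, the constitutive HSP70 chaperone, stood at 11.3, 43.6 and 72.2 CPM at 36 h and 624, 837 and 1675 CPM in morulae (log2 change 4.36, SE 0.33, adjusted p = 2.79e-10), and its co-chaperone Dnaja1 had a log2 change of 3.79. Neither overlapped. The mitochondrial peroxiredoxin Prdx3 rose (3.88) while the cytosolic Prdx2 fell, from a median of 2695 to 127.1 CPM (-4.57). Gclm, of glutathione synthesis, was higher (3.64). Gstm1 and Hmox1, a glutathione transferase and haem oxygenase, had 0 counts in morulae and were at least 260.2- and 87.8-fold lower, and the quinone reductase Nqo1 had -4.92.

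Of 45 DNA replication genes, 15 were higher and 9 lower (median 0.31). Tyms and Tk1, which make thymidylate, stood out: Tyms at 16.7, 23.2 and 77.5 CPM at 36 h and 482, 533 and 696 CPM in morulae (log2 change 4.12, SE 0.31, adjusted p = 2.97e-10), and Tk1 with a log2 change of 4.19. Both were without overlap. Rfc4, of the clamp loader, and Orc3 had 3.94 and 3.33, whereas other origin subunits, Orc1 and Orc5, had -2.54 and -2.60. Of 32 cyclins and cell cycle kinases, 4 were higher and 16 lower. Cdk1 and Cdk4, and the mitotic kinase Aurka, were higher (1.76, 1.94 and 1.59). Ccnb2, the fourth, lost its call in 9 of the 14 fits without 1 library and in 16 of all 23 alternative fits. Wee2, the oocyte kinase that inhibits CDK1, had medians of 1101 to 3.03 CPM (-8.29), and Rb1 and E2f1, of the G1 checkpoint, had -6.41 and -4.24.
Of 18 tested apoptosis genes, 4 were higher and 8 lower (median -0.62). This split was near that of all genes tested, 29.0% higher and 43.9% lower with a median of -0.59. Bax and Bad, which promote cell death, the caspase Casp6 and the survival gene Mcl1 were higher (3.69, 3.13, 4.03 and 1.55). Bik, which promotes death, Casp8, and the survival genes Bcl2l10 and Bcl2l1 were lower (-6.40, -5.14, -5.25 and -2.91). All 8 had no overlap between groups.

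Signalling genes of the FGF, BMP, Nodal and Wnt pathways were lower in 12 of 22 and higher in 3. Id3, a BMP target, was higher (2.96) while Id2 was lower. Spry4, an inhibitor of FGF signalling, stood at 102.2, 181 and 259 CPM at 36 h and 0, 0.977 and 2.43 CPM in morulae (log2 change -7.63, SE 0.44, adjusted p = 7.11e-12), without overlap. The Wnt receptor Fzd7 had 0 counts in morulae (at least 44.97-fold lower), and the cytokine receptor Il6st had 280 counts at 36 h and 1 in morulae. In the keratin and cytoskeletal list, 5 of 31 were higher and 12 lower. Pfn1, profilin, and the actin Actg1 had 4.92 and 2.95, and Tubb2a -5.98. Vim, vimentin, had 206 and 2 counts. The higher count was 9 without 36 h replicate 3, the embryo with the highest cumulus marker sum. It was 8 without morula replicate 2 and 8 without 36 h replicates 3 and 6, the 2 embryos with the highest sums. Those 2 embryos had the highest Vim levels, 32.9 and 30.9 CPM, against 2.51 to 11.5 CPM in the other 36 h embryos. They also had the highest 2-cell program sums at 36 h, 9336 and 6896 CPM.

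Chromatin genes moved in both directions, as did all genes tested (29.0% higher, 43.9% lower, median -0.59). In the DNA methylation list 3 of 15 were higher and 7 lower (median 0.57). Trim28, the corepressor KAP1, had a log2 change of 2.92, while Zfp57, the zinc-finger protein that recruits it to imprinted loci, stood at 44.3, 85.5 and 184 CPM at 36 h and 1.99, 2.87 and 6.71 CPM in morulae (log2 change -4.80, SE 0.43, adjusted p = 3.43e-09). The latter showed no overlap. Tet3, the oocyte dioxygenase, Uhrf2 and Mbd2 had -3.71, -3.81 and -3.36. Dnmt3b (1.44, adjusted p = 0.0356) and Dnmt1 (-1.04, 0.0481) passed narrowly and lost their calls in 5 and 12 of the 14 fits without 1 library. Over all 23 alternative fits they lost them in 8 and 15. The list had 5 or 6 higher members without 36 h replicate 6 or morula replicate 2, 3, 7 or 8. Of 30 histone modifiers, 6 were higher and 10 lower (median -0.43). The higher ones included the polycomb subunit Eed (1.24) and the demethylase Kdm1a (1.64). The lower ones included Suv39h1, Suv39h2 and Kmt2d (-2.95, -3.20 and -4.32). With library size alone 3 were higher.

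Of 18 tested imprinted and X-inactivation genes, 8 were higher and 6 lower. Igf2r, the imprinted receptor that clears IGF2, stood at 0.754, 4.34 and 8.62 CPM at 36 h and 58.3, 94.2 and 174 CPM in morulae (log2 change 4.46, SE 0.45, adjusted p = 1.74e-08), without overlap. Impact and Sgce were higher (3.76 and 3.69), Mest, Cdkn1c and Rlim, an X-linked ubiquitin ligase that activates Xist, were lower (-4.24, -2.05 and -2.08), and Meg3 had 0 counts in morulae (at least 45.2-fold lower).
Xist, the RNA that coats the inactive X chromosome (mm10 chrX:103460366-103483254, minus strand), had a log2 change of 4.48 (SE 1.14, adjusted p = 0.00166), but its level split the morulae. Morula replicates 2, 4 and 7 had 514.9, 44.3 and 207 CPM, and 0, 0.607 and 0.958 CPM summed over 7 Y-linked genes. Morula replicates 3, 6 and 8 had 0, 0.498 and 0.807 CPM of Xist and 140.4, 115.8 and 154 CPM of the Y-linked sum. At 36 h Xist ranged from 1.44 to 14.6 CPM in all 8 embryos, and 1 of them, replicate 1, had a Y-linked sum of 357 CPM against 1.07 to 6.03 CPM in the others. The Y-linked transcripts differed too: at 36 h replicate 1 they were led by Zfy2 (144.5 CPM), Zfy1 (79.7) and Eif2s3y (54.3), whereas in the 3 morulae Eif2s3y ran from 54.9 to 102.9 and Ddx3y from 27.5 to 52.9 CPM, with Zfy1 and Zfy2 at 0 to 2.49. Tsix, the antisense partner, reached 295.5, 26.7 and 146 CPM in morula replicates 2, 4 and 7. The kit does not mark strand, so reads of Xist and Tsix cannot be told apart.

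**Figure D3:**
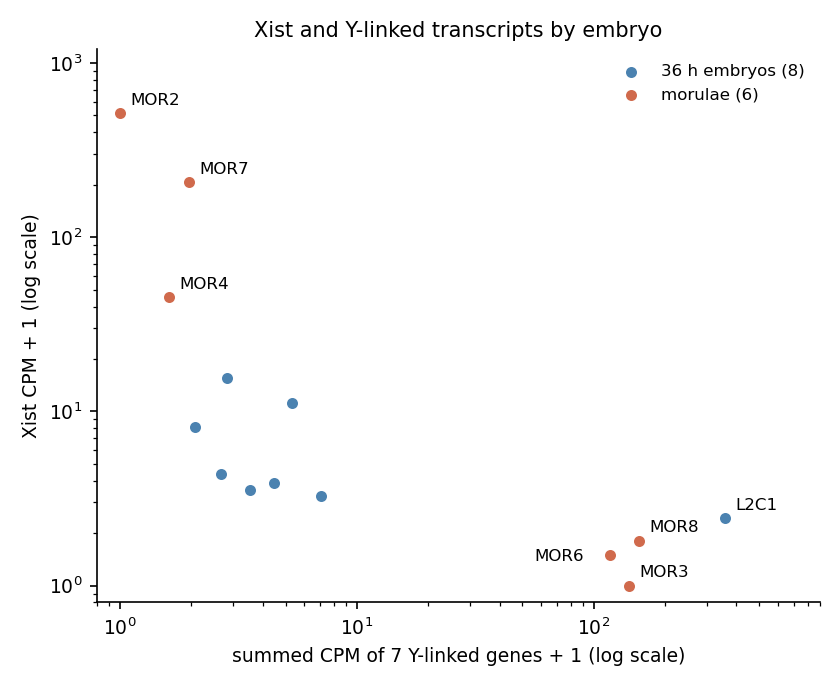
Xist level against the sum of 7 Y-linked genes in each embryo, as CPM + 1 on log axes. In morulae high Xist and high Y-linked sums fall in different embryos, 3 of each. At 36 h 1 embryo has a Y-linked sum of 357 CPM and Xist lies between 1.44 and 14.6 CPM in all.

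Complete losses far outnumbered complete gains. With a gain defined as at most 3 counts over the 36 h embryos and at least 10 CPM in every morula, and a loss as the reverse, 5 genes were gained (Sycn, Eprn, Gsta1, Tdgf1-ps1 and Gm16200, picked by their values) and 249 lost, 157 of them protein-coding. By gene class, 317 of 400 long intergenic non-coding RNAs were lower and 34 higher (median -5.84), and 2557 of 9796 protein-coding genes were higher and 4312 lower (median -0.66). Processed pseudogenes went the other way, 752 of 1147 higher and 232 lower (median 2.09), which includes many copies of ribosomal protein genes whose reads may be shared with the parent. X-linked genes had a median of -1.15 over 463 tested, against -0.57 for autosomal genes. Protein-coding genes that rose were shorter, by the summed length of all annotated exons of a gene with overlaps merged. Its median was 3266 bases, against 4719 for genes that fell and 4658 for those not called. Genes named Zfp, which encode zinc-finger proteins, were lower in 57.4% of 230 and higher in 15.

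Repeat families fell almost as a whole. Of 539 families tested on the gene-count scale, 502 (93.1%) changed: 479 (88.9%) were lower in morulae and 23 (4.27%) higher, with a median log2 change of -2.64. In 405 (75.1%) every morula lay below, and in 11 (2.04%) above, every 36 h embryo. Relative to the total of repeat counts instead, 277 of 523 families changed, 25.2% of those tested being higher and 27.7% lower, so the split depends on the scale: on the gene-count scale 4.58% of changed families were higher and on the repeat scale 47.7%. MTA_Mm-int, the internal part of a MaLR retrotransposon that is abundant in oocytes, stood at 44381, 52559 and 101834 CPM at 36 h and 346, 535 and 817 CPM in morulae (log2 change -6.87, SE 0.35, adjusted p = 2.38e-18). MERVL-int, the retrovirus that marks the 2-cell program, stood at 3774, 10348 and 14612 CPM at 36 h and 47.3, 119.2 and 264 CPM in morulae (log2 change -6.28, SE 0.40, adjusted p = 7.13e-14), and MT2_Mm, its long terminal repeat, at 3657, 8890 and 11325 CPM at 36 h and 429, 556 and 680.5 CPM in morulae (log2 change -3.93, SE 0.27, adjusted p = 7.77e-15). All 3 were without overlap. HERVL40-int had 5732 counts at 36 h and 5 in morulae, and MT-int, MTA_Mm and RLTR40 had log2 changes of -6.76, -6.05 and -5.56.
A few endogenous retroviruses rose. RLTR45-int stood at 52.4, 80.8 and 125.9 CPM at 36 h and 1584, 2174 and 3271 CPM in morulae (log2 change 4.72, SE 0.23, adjusted p = 1.76e-18), and its terminal repeat RLTR45 had 2.09. Every morula was far above every 36 h embryo for the internal part. ERVB2_1A-I_MM-int, RLTR13B2, RLTR13C2 and RLTR13B1 had 3.29, 3.15, 2.27 and 2.16, each without overlap. Among LINE-1 families, L1Md_T was higher (1.32) and L1Md_A lower (-2.13), but on the repeat scale L1Md_A had 0.37 (adjusted p = 0.188). The SINE family B1_Mm was higher (1.41). IAPEz-int and B2_Mm2 did not pass (-0.25 and -0.03, adjusted p = 0.564 and 0.889), but on the repeat scale both were called higher, at 2.13 and 2.38 (adjusted p = 8.54e-05 and 2.19e-09).

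**Figure D4:**
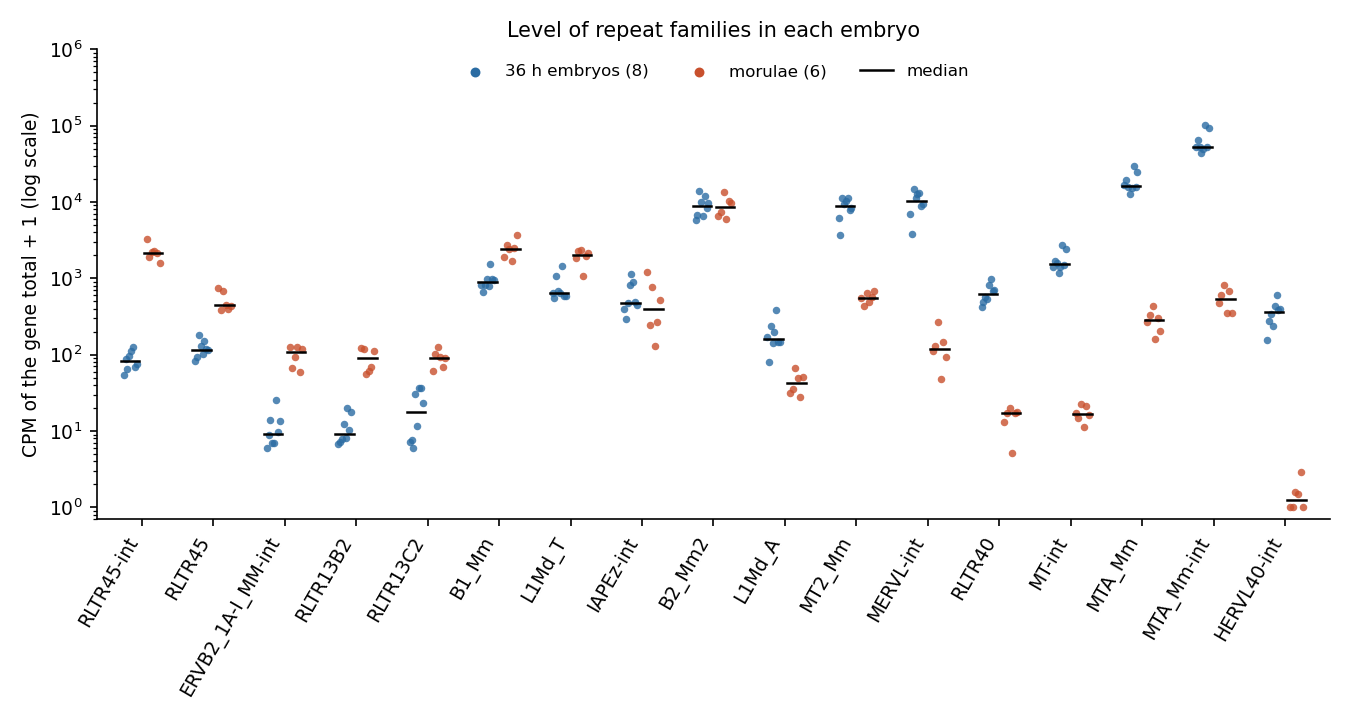
Level of 17 repeat families in each embryo, as CPM + 1 relative to gene counts, on a log axis. Points are embryos and bars are medians. RLTR45-int is the family furthest above its 36 h level, and HERVL40-int, MTA_Mm-int and MERVL-int are far below theirs in every morula.

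Across the 16 groups of the series, with TMM over the 95 libraries kept, 2972 of the 3532 genes higher in morulae (84.1%) had their highest group mean there. In 241 of the rest the oocyte mean was at or above that of morulae. Of the 5357 lower genes, 1841 (34.4%) peaked at 36 h and 2330 (43.5%) had a higher mean in oocytes than at 36 h. Ribosomal protein genes summed to group means of 566 to 1836 CPM before 36 h, 3386 at 36 h and 44089 in morulae. Respiratory chain genes went from 2749 to 5846 before, to 4945 and 22937, and proteasome genes from 2983 to 5033, to 2230 and 15125. The mitochondrial genome's genes were highest at 36 h, at 81988 CPM, against 5193 to 22485 before and 32951 in morulae, so that the morulae, though below 36 h, were above every earlier group. Oocyte-derived genes held 77009 to 134006 CPM before 36 h, 57219 at 36 h and 2061 in morulae. Khdc3 had 217 CPM at 0 h, 3.65 to 8.09 CPM from 10 h to 36 h, taken as group means, and 294 in morulae. Timd2 stayed at 5.86 to 14.5 CPM up to 24 h, reached 149.5 at 36 h and 15858 in morulae.

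**Figure D5:**
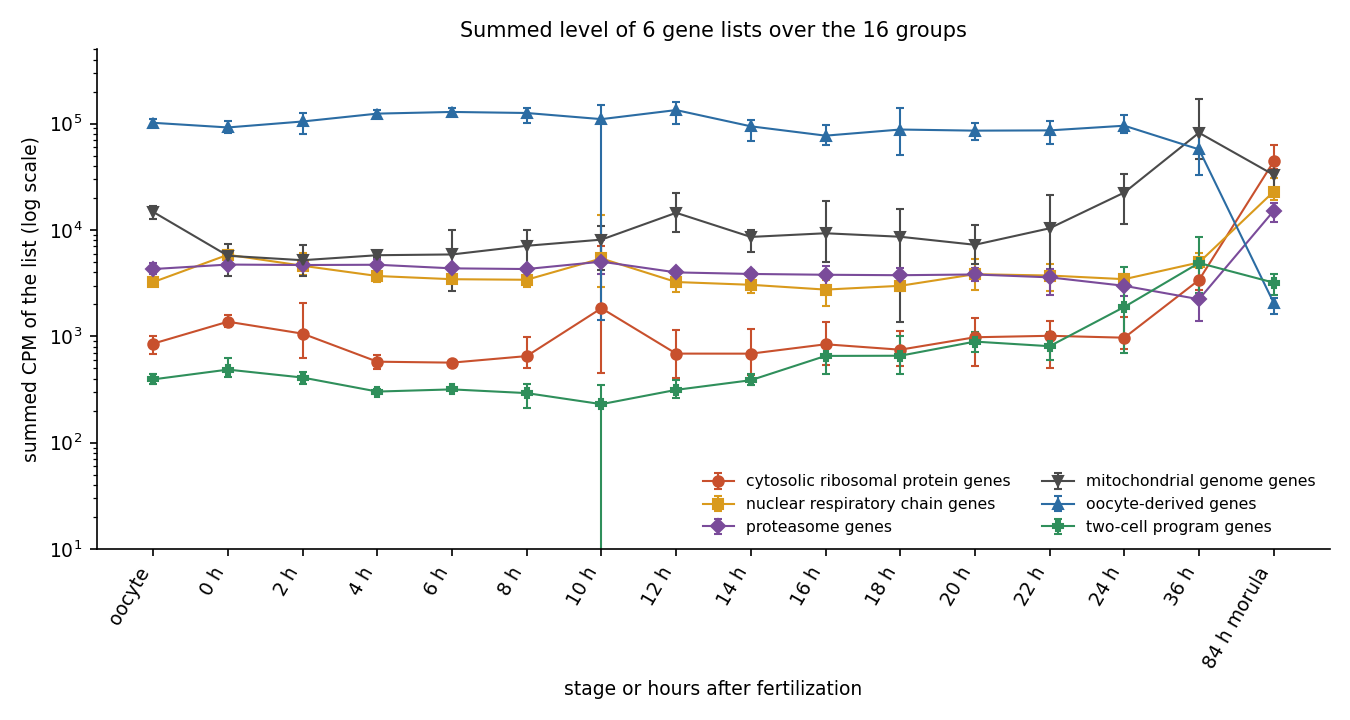
Summed CPM of gene lists in each group of the series on a log axis, with library sizes scaled over 95 libraries. Points are group means and bars the lowest and highest library, which are wide at 10 h because 1 library there stands apart. Ribosomal protein genes climb from 3386 CPM at 36 h to 44089 in morulae, and oocyte-derived genes drop from 57219 to 2061.

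Morulae varied less from embryo to embryo. Over 1483 genes at 50 CPM or more in both groups, the median coefficient of variation was 32.5% at 36 h and 26.4% in morulae, and it was larger at 36 h in 939 of them. The spread at 36 h includes the embryos with the highest cumulus marker sums, replicates 3 and 6, whose part was not tested. Among genes at 50 CPM or more in morulae, Xist (161%) and Tsix (155%) varied most, followed by Obox8 at 122.6%, a homeobox gene that ran from 11.7 to 445 CPM among morulae and did not differ between stages by the test (log2 change 0.57, adjusted p = 0.409).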

How the data were processed

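RNA of single embryos was measured by SMART-Seq v4 and Nextera XT, per the labels. Values are expected counts, deposited by the authors for 55401 genes and 873 repeat families and made with Trimmomatic 0.39, STAR and featureCounts on mm10, per the submitters' processing notes. Of non-zero values 28.4% (genes) and 70.6% (repeats) are not whole within 1e-06, so reads were shared between features, and overlapping, antisense and near-identical genes are uncertain. The planned tests assumed counts, so values were rounded. Names and coordinates are from GENCODE M21 (55141 identifiers matched, 260 not), and promoters from RefSeq GRCm38.p6, matched by symbol for 8080 tested genes.

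Genes passing filterByExpr were tested with edgeR 4.0.16 (TMM, robust quasi-likelihood fit, R 4.3.3), with p-values adjusted over all genes by Benjamini-Hochberg and 0.05 as threshold. SE is the absolute log2 change over the square root of F. Repeat families used the gene library sizes. Alternatives were other scalings, DESeq2 1.42.0, no filter, thinning, all 7 morulae, 1 fit of all groups, a replicate block and leaving out libraries. A fit without replicates 3 and 6 at 36 h and those of whole-library measures were chosen after seeing the data.

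Named genes were the 12 largest rises and falls among called genes without overlap at 50 CPM or more in the higher group, leaving out Gm and Rik names, and up to 4 called genes per direction of each of 30 gene lists, plus fixed markers; any other gene named was chosen after its values were seen. The members and lists were chosen with earlier results of these data known. Totals of 1130566 to 4202541 counts put 1 count at under 1 CPM.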

Additional observations from a re-analysis of the deposited data

Results flagged for a closer look

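Among 35 genes described by embryo, the highest and the lowest library of each group were compared with the rest of their group by Dixon's ratio on the log2(CPM + 1) scale, and 8 stood apart at the 95% level. Chance marks about 1 in 20 groups. Of the 8, 6 were in replicate 6 at 36 h, the embryo with the lowest correlation with its group. There mt-Co1 was highest at 29407 CPM, against 13997 in the next embryo, and Omt2a was highest at 31268 CPM, against 17257. The same embryo was lowest for Psmb5 at 3.02 CPM (next 9.70), for Dppa5a at 8.29 CPM (next 132.1), for Khdc3 at 0 CPM (next 2.87) and for Hspa8 at 11.3 CPM (next 34.6). Tdgf1 was highest in replicate 2 at 36 h, at 5.48 CPM against 0.575 in the next embryo. Spry4 was lowest in replicate 1 at 36 h, at 102.2 CPM against 169 in the next. No morula stood apart by this measure for these genes.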

How the results depend on the processing

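With no filter on low counts 15832 genes were called (32196 tested), 10721 of them lower. In 1 fit of all groups 9233 of 18970 tested genes were lower, against 5357 of 12199 in the main fit. With repeat families scaled by repeat rows (523 tested), 277 were called, 25.2% of those tested higher and 27.7% lower, and L1Md_A, IAPEz-int and B2_Mm2 were at 0.37, 2.13 and 2.38. These repeat values are relative to a total that itself fell against gene counts. Leaving out 1 library at a time gave 8339 to 9249 changed genes (3395 to 3733 higher, 4937 to 5686 lower), with 11634 to 12937 tested. It gave 479 to 539 changed families (3.97% to 5.02% of those tested higher, 86.2% to 90.2% lower). Numbers shared between the groups showed no pairing by correlation: the correlations of same-numbered deviations ran from -0.067 to 0.0055, and no morula correlated best with its own number. Each stage was in its own batch, so these values cannot tell whether same-numbered embryos shared a mother. With the number as a block, 3333 genes were higher and 5049 lower, and 20 families higher and 471 lower, and Xist was at 1.97 (adjusted p = 0.273). Of the values for single genes and families under all alternatives, 5009 kept their direction and side of the threshold, those of 20 genes or families fell short of it in at least 1 and those of 4 gained a call in at least 1 with the same sign. The 3 families that turned sign also changed call: L1Md_A lost its call, and IAPEz-int and B2_Mm2 gained one. Of list counts, 1304 stayed within 1.5 times and 76, from 19 counts, did not. All 56 whole-library values without 1 library stayed within the replicate spread or kept their call. In data simulated from these libraries, 57 of 100 4-fold and 6 of 100 2-fold changes were recovered. Few genes changed in that simulation, so its adjusted threshold was stricter than in the data.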

Other observations

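Families grouped by name after the data were seen gave 2 further counts. Of 33 Ube2 genes, which encode ubiquitin-conjugating enzymes, 15 were higher in morulae and 6 lower, and of 156 Slc solute carrier genes 34 were higher and 71 lower, against 29.0% and 43.9% of all genes. In the promoter windows, CCAAT was found in 12 of 17 genes of the 2-cell program, against 44.9% of tested genes and 41.1% of all genes. The NRF1 motif was found in 5 of 62 nuclear respiratory chain genes (8.07%), against 2.5% of tested genes and 1.07% of all genes.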
